A study of Mus musculus with 9 samples.

Results

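The 9 genes described here mark GABAergic neurons and the ventral telencephalon, the part of the embryonic forebrain that gives rise to interneurons and to the striatum. They were taken by name: the homeobox factors Dlx1, Dlx2, Dlx5 and Dlx6, the antisense RNA Dlx6os1, the glutamate decarboxylases Gad1 and Gad2, and the zinc finger factors Sp8 and Sp9. All 9 were found among the 78275 gene IDs of the count table. RNA came from mCherry-positive cells of wild-type mouse embryos, sorted from the forebrain at E16.5, and the labels call these cells cortical progenitors and neurons. Every embryo had been electroporated in utero at E14.5, 48 h before the sort, with an mCherry construct carrying a microRNA-embedded hairpin. The hairpin was a scramble (sh-NT), or was directed against Gpc4 (sh-Gpc4) or Gpc2 (sh-Gpc2), which encode glypicans, heparan sulfate proteoglycans of the cell surface. Each group had 3 libraries, and the series asks what loss of each glypican does to cortical development. Knockdown acted only in transfected cells within a wild-type cortex, and the sources used here do not give the strain, the sex or how many embryos made up a library.

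Excitatory neurons of the cortex are born from progenitors of the dorsal telencephalon, where the electroporated cells of such experiments usually lie. GABAergic interneurons are born in the ganglionic eminences of the ventral telencephalon and migrate into the cortex over long distances. DLX factors act in ventral progenitors and their daughters, where they drive GABAergic fate and migration, and the glutamate decarboxylases then make the transmitter GABA. Sp9 and Sp8 act in interneurons and striatal cells, but Sp8 is also a patterning factor of dorsal cortical progenitors.

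Libraries carry the numbers of the count table's columns. Those of sh-NT, like those of sh-Gpc2, are 1, 2 and 4; sh-Gpc4 has 1, 3 and 4. Total counts ran from 48045603 to 66538437 reads. On the first principal component, which held 71.2% of the variance, sh-Gpc4 library 3 and sh-Gpc2 library 4 lay farthest from the other libraries. Levels are in CPM, reads scaled to a common library size after TMM normalization. The targeted Gpc4 ranged from 165 to 188 CPM over sh-NT and from 99.9 to 137 CPM over sh-Gpc4, and Gpc2 from 161 to 207 CPM over sh-NT and from 79.6 to 167 CPM over sh-Gpc2. Gpc2 was also at 70.3 to 168 CPM over sh-Gpc4, and Gpc4 at 116 to 216 CPM over sh-Gpc2, and sh-Gpc2 library 1 lay within the sh-NT range for Gpc2. For the labelled cell type, all 16 genes of a cortical excitatory list had reads in every library, the most abundant being the neuronal factor Neurod6, at 1140 ± 107 CPM (SD, n = 3) in sh-NT, 1260 ± 159 in sh-Gpc4 and 1150 ± 159 in sh-Gpc2. In each knockdown, 10 of the 16 had a lower mean than in sh-NT and 6 a higher one, with median log2 fold changes of -0.08 in sh-Gpc4 and -0.09 in sh-Gpc2. Microglia markers were present as well, and their 8 genes summed to between 389 and 1320 CPM. The labels do not tie libraries to litters, so a p-value here speaks only of the spread among these samples, which may be technical.

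The DLX genes lie in pairs (GRCm38, GENCODE M21 gene models). Dlx1 (chromosome 2, 71528113 to 71533981, plus strand) and Dlx2 (chromosome 2, 71543408 to 71546754, minus strand) face each other 9.43 kb apart. Dlx6 (chromosome 6, 6863334 to 6868568, plus strand) and Dlx5 (chromosome 6, 6877805 to 6882085, minus strand) do the same 9.24 kb apart. Dlx6os1 (chromosome 6, 6820189 to 6871592, minus strand, antisense RNA) runs across Dlx6 without sharing exon bases with it. Gad1 (chromosome 2, 70553072 to 70602014, plus strand), Gad2 (chromosome 2, 22622205 to 22693874, plus strand) and Sp9 (chromosome 2, 73271925 to 73284706, plus strand) are on the chromosome of Dlx1 but not beside it, Gad1 being 926 kb away. Sp8 is on chromosome 12 (118846329 to 118852576, plus strand). The antisense gene Dlx1as shares 335 exon bases, 6.21% of those of Dlx1, and since no strand setting is given, reads there cannot be told apart.

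RefSeq promoter sequences (GRCm38.p6) matched 7 of the 9 genes, with 10 start sites in all. The 250 bases before a start are shown for 3 genes: Dlx2 and Dlx6os1, whose reads came mostly from a single library, and Sp8, whose reads did not. Capitals mark TAATTA, the core recognised by many homeodomain proteins, TATAAA and CCAAT, each on either strand; no marked matches overlap. The windows are chr2:71546755-71547004 (minus strand), chr6:6869534-6869783 (minus strand) and chr12:118846079-118846328 (plus strand).
Dlx2: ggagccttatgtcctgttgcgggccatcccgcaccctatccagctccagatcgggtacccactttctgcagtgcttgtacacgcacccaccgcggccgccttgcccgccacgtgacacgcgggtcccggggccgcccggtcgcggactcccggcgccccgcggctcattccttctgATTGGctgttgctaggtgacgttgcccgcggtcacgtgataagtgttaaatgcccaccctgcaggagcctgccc
Dlx6os1: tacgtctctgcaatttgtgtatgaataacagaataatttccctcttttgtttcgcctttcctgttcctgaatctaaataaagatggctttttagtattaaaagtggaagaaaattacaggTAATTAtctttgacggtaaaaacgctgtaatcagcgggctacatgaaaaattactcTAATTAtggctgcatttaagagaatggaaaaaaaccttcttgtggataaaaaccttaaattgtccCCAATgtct
Sp8: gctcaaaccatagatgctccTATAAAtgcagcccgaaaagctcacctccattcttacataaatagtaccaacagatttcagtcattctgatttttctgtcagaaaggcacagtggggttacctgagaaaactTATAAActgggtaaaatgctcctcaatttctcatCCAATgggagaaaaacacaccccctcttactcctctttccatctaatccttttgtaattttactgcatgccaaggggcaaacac
The Dlx6os1 window shown held TAATTA 2 times and the Dlx2 window held it nowhere. Dlx6os1 and Sp8 also have other starts, whose windows are not shown. The other Dlx6os1 window held TAATTA 1 time. Of the Sp8 windows, only that at chr12:118847309-118847558 held it, 1 time. Among the 32851 promoters of the table, 4.84% held TAATTA, 12.4% TATAAA and 33.8% CCAAT, against 3, 3 and 6 of the 10 windows of these genes. The matches describe letters in these windows only.

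The most abundant DLX transcript, Dlx1, was concentrated in sh-NT library 1. The sh-NT libraries 1, 2 and 4 held 16.2, 1.54 and 1.47 CPM (1008, 91 and 83 reads). In sh-Gpc4 (libraries 1, 3 and 4) the level was 1.02, 1.69 and 1.44 CPM. In sh-Gpc2 (libraries 1, 2 and 4) it was 2.81, 0.936 and 2.42 CPM. Apart from sh-NT library 1 the groups overlapped, and the 8 other libraries lay within a factor of 3.0 of each other. A single library thus held 54.9% of the 9-library sum and 84.4% of the sh-NT sum.

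Dlx2, the partner of Dlx1 in ventral progenitors, was more uneven still. It was at 6.47, 0.574 and 0.301 CPM in the sh-NT libraries, at 0.12, 0.12 and 0.191 CPM in sh-Gpc4, and at 1.24, 0.371 and 0.0814 CPM in sh-Gpc2. These values came from 402, 34 and 17 reads, 6, 8 and 13 reads, and 70, 23 and 4 reads. All 3 sh-Gpc4 libraries lay below all 3 sh-NT libraries, also when sh-NT library 1 is set aside, but sh-Gpc2 library 4 was lower than any of them. Sh-NT library 1 held 68.4% of the 9-library sum.

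Dlx5 and Dlx6, the pair on chromosome 6 that acts later in the same lineage, followed suit. Dlx5 was at 3.27, 0.0506 and 0.159 CPM in sh-NT (203, 3 and 9 reads), at 0.16, 0.3 and 0.206 CPM in sh-Gpc4, and at 0.53, 0.484 and 0.366 CPM in sh-Gpc2. All 3 sh-Gpc2 libraries were above all 3 sh-Gpc4 libraries and above sh-NT libraries 2 and 4, but below sh-NT library 1. Dlx6 was the scarcest of the 9, with 106, 2 and 5 reads in sh-NT, 5, 10 and 3 reads in sh-Gpc4 and 10, 5 and 5 reads in sh-Gpc2. Its 106 reads in sh-NT library 1 were 1.71 CPM, and no other library exceeded 0.177 CPM. The shares of sh-NT library 1 were 59.2% for Dlx5 and 68.8% for Dlx6.

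Dlx6os1, a long noncoding RNA that is also known as Evf2 and is made from the enhancer region of the Dlx5 and Dlx6 locus, had the largest such share, 70.1%. It was at 13.1, 0.489 and 0.478 CPM in the sh-NT libraries, at 0.4, 0.75 and 0.398 CPM in sh-Gpc4, and at 1.59, 0.468 and 1.04 CPM in sh-Gpc2. Sh-NT library 1 was 27.2 times the median of the other 8 libraries, and 8.27 times the next highest, sh-Gpc2 library 1. The sh-Gpc4 and sh-Gpc2 groups overlapped.

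**Figure D1:**
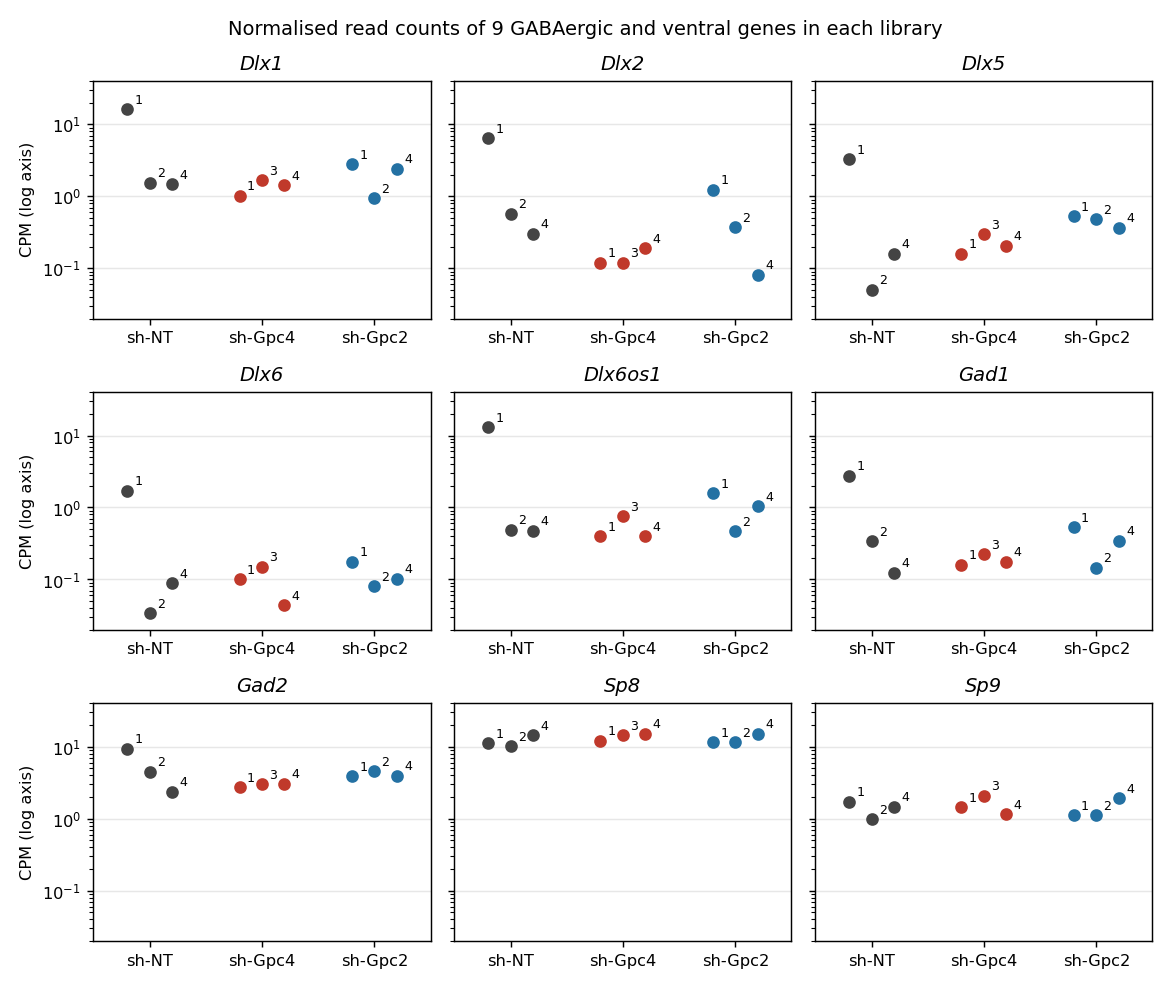
CPM on a log axis of each of the 9 genes in each library; points are libraries, numbered by their column, in sh-NT (grey), sh-Gpc4 (red) and sh-Gpc2 (blue). For Dlx1, Dlx2, Dlx5, Dlx6, Dlx6os1 and Gad1, sh-NT library 1 stands 5.23 to 9.66 times above the next library, while Sp8 stays between 10.2 and 15.1 CPM throughout.

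The decarboxylases differed from each other. Gad1, the main source of GABA in interneurons, was at 2.78, 0.338 and 0.124 CPM in sh-NT, at 0.16, 0.225 and 0.177 CPM in sh-Gpc4, and at 0.53, 0.145 and 0.346 CPM in sh-Gpc2. Outside sh-NT library 1, whose value came from 173 reads, no library had more than 30 reads, and sh-NT library 1 held 57.7% of the sum. Gad2, which makes GABA mainly at nerve terminals, was at 9.3, 4.46 and 2.37 CPM in sh-NT, at 2.72, 3.03 and 3.06 CPM in sh-Gpc4, and at 3.88, 4.53 and 3.93 CPM in sh-Gpc2. It was thus present in every library, with 134 to 578 reads, and sh-NT library 1 held 24.9% of its sum, 2.68 times the median of the others. All 3 sh-Gpc2 libraries exceeded all 3 sh-Gpc4 libraries for Gad2.

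Sp8 and Sp9 showed no such library. Sp8 was at 11.1, 10.2 and 14.4 CPM in sh-NT and at 11.6, 11.6 and 15.1 CPM in sh-Gpc2. In sh-Gpc4 it was at 12.1 and 15.1 CPM in libraries 1 and 4, and library 3, with 968 reads, lay between them. Its 4 highest libraries were sh-NT library 4, sh-Gpc4 libraries 3 and 4 and sh-Gpc2 library 4, and the 3 groups overlapped. Sp9 was at 1.71, 0.979 and 1.47 CPM in sh-NT, at 1.44, 2.08 and 1.15 CPM in sh-Gpc4, and at 1.11, 1.11 and 1.91 CPM in sh-Gpc2. Sh-NT library 1 held 9.59% of the Sp8 sum and 13.2% of the Sp9 sum, and the groups overlapped for Sp9 too.

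Per kilobase of exon, the 9 genes changed their order between sh-NT library 1 and the rest. Over the other 8 libraries the median level was highest for Sp8, at 2.91 RPKM (CPM per kilobase of exon), then Gad2 at 0.591, Dlx1 at 0.278 and Sp9 at 0.256 RPKM. Dlx5, Dlx6os1, Dlx2, Dlx6 and Gad1 followed at 0.112, 0.0935, 0.0862, 0.0396 and 0.0263 RPKM. In sh-NT library 1 Dlx1 led at 3.01 RPKM, followed by Dlx6os1 at 2.54, Sp8 at 2.44 and Dlx2 at 2.27 RPKM. Gad2 was at 1.58, Dlx5 at 1.44, Dlx6 at 0.718, Gad1 at 0.364 and Sp9 at 0.338 RPKM. The level of sh-NT library 1 above the median of the other libraries was 2.73 RPKM for Dlx1 and 2.45 for Dlx6os1, but 0.0818 for Sp9. In bulk RNA, more cells of a type and more RNA per cell cannot be told apart.

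Such concentration in a single library was rare among the genes tested. Sh-NT library 1 was the highest of the 9 libraries for 7 of these 9 genes and for 6.61% of the 27773 genes tested. A library held at least 50% of the 9-library sum for 20 of all tested genes (0.072%). In 6 of those 20 (0.0216% of the genes tested) the library was sh-NT library 1, and the 6 were Dlx1, Dlx2, Dlx5, Dlx6os1, Gad1 and Isl1. Isl1 is a LIM homeobox factor of the ventral telencephalon and of striatal neurons. With a mean of at least 0.5 CPM, where counts are less thin, a library held 50% or more for 0.0555% of genes, and sh-NT library 1 for 0.0231%. Dlx6 was also past 50% but did not pass the filter on low counts, so that it is not among the 27773. Six3 and Slc32a1, from lists described below, failed it too, with 69.7% and 56.2% of their sums in sh-NT library 1. Because the filter asks for reads in several libraries, it removes many genes confined to a single library. The shares above therefore hold for the genes tested and not for all genes.

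**Figure D2:**
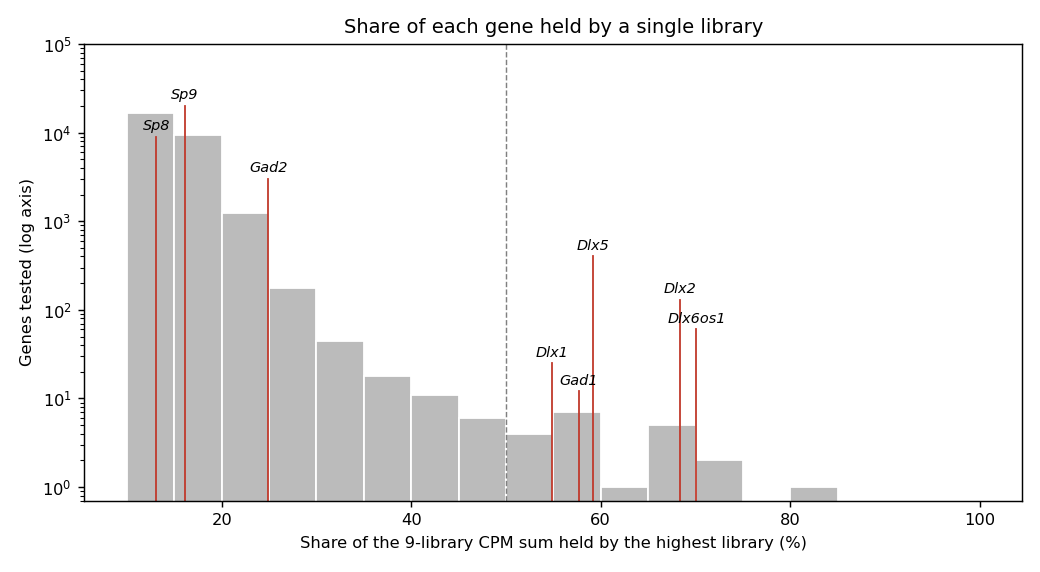
Number of tested genes (bars, log axis) by the share of their 9-library CPM sum that the highest library held, in percent; red lines mark the 8 tested genes described here. Sp8, Sp9 and Gad2 lie between 13.1 and 24.9%, and Dlx1, Gad1, Dlx5, Dlx2 and Dlx6os1 between 54.9 and 70.1%, past the dashed line at 50%.

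The next highest library also recurred. For Dlx1, Dlx2, Dlx5, Dlx6, Dlx6os1 and Gad1 it was sh-Gpc2 library 1, which held between 7.12 and 13.1% of their sums. Summed over the 7 genes other than Sp8 and Sp9, sh-NT library 1 held 52.9 CPM and sh-Gpc2 library 1 held 10.8 CPM. The other sh-NT libraries held 7.48 and 4.99 CPM, the sh-Gpc4 libraries 4.67, 6.27 and 5.52 CPM, and sh-Gpc2 libraries 2 and 4 held 7.02 and 8.28 CPM. Sh-NT library 1 made up 49% of the sum over 9 libraries and 80.9% of that over sh-NT.

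In sh-Gpc4 against sh-NT, the group means of 6 of the 8 tested genes were lower and those of Sp8 and Sp9 higher, while 47.2% of all genes were lower, and none of the differences passed. The quasi-likelihood test of edgeR, fitted to all 9 libraries and adjusted over 27773 genes, called 0 of the 8 at an adjusted p under 0.05, as it did 0% of all genes. At an unadjusted p under 0.05 there were 4 of the 8 (Dlx1, Dlx2, Dlx6os1 and Gad1), and 9.57% of all genes. DESeq2 called none of these genes either, against 0.165% of all genes, and gave no p-value for Dlx1 and Dlx5. Limma voom called none of them and 0% of all genes. The median log2 fold change of the 8 was -2.28, and that of all tested genes 0.02. Groups did not overlap for 1 of the 8, Dlx2, where the same held for 24% of all genes (13.2% lower, 10.8% higher).

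Dlx2 had the largest log2 fold change in sh-Gpc4, at -4.06 (SE 1.28, 95% interval -6.92 to -1.2, adjusted p = 0.488 in edgeR). Its mean was 2.45 ± 3.49 CPM over the sh-NT libraries but 0.144 ± 0.0413 CPM over those of sh-Gpc4 (SD, n = 3 each). The exact permutation p (two-sided) was 0.1, and no smaller value is possible with 3 libraries a group. Without sh-NT library 1 the log2 fold change of Dlx2 was -1.58 (SE 0.90, adjusted p = 0.656 in edgeR), with 17 and 34 reads in the remaining controls.

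Of the other genes that were lower in sh-Gpc4, each was nearer to 0 or positive without sh-NT library 1. Dlx1 went from a log2 fold change of -2.2 (SE 0.88) to -0.11 (SE 0.43) without it. Dlx6os1 went from -3.18 (SE 1.19) to 0.1 (SE 0.52), and Dlx5 from -2.36 (SE 1.14) to 1.1 (SE 0.51), so both changed sign. Gad1 went from -2.52 (SE 0.99) to -0.3 (SE 0.60), and Gad2 from -0.87 (SE 0.39) to -0.22 (SE 0.26). Without that library the adjusted p in edgeR lay between 0.656 and 0.953 for the 8 genes. For Dlx6, fitted with no filter on low counts because it failed the default filter, the log2 fold change over all libraries was -2.63 (SE 0.84, adjusted p = 0.284 in edgeR).

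Sp8 and Sp9 gave narrower intervals around small differences. The log2 fold change of Sp8 in sh-Gpc4 was 0.23 (SE 0.17, 95% interval -0.16 to 0.62) and that of Sp9 0.17 (SE 0.31, 95% interval -0.53 to 0.87). Their adjusted p in edgeR was 0.553 and 0.809. Sp8 remained positive without each library in turn, from 0.13 to 0.39, while Sp9 was at -0.09 without sh-Gpc4 library 3, at -0.03 without sh-NT library 2 and at 0.35 without sh-NT library 1.

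In sh-Gpc2 against sh-NT, the means of 7 of the 8 tested genes were lower with all libraries (49.3% of all genes were), and the log2 fold changes of all 7 turned positive without sh-NT library 1. No gene passed: edgeR called 0 of the 8 and 0% of all genes, with 0 of the 8 and 2.56% of all genes at an unadjusted p under 0.05. DESeq2 and limma voom also called 0 of them and 0% of all genes, but DESeq2 gave no p-value for Dlx1 and Dlx5. Groups overlapped for all 8, where 7.7% of all genes had groups that did not (4.11% lower, 3.59% higher). Dlx2 was at -2.11 (SE 1.09) with all libraries and at 0.37 (SE 0.80) without sh-NT library 1. Dlx6os1 went from -2.2 (SE 1.13) to 1.08 (SE 0.51), Dlx1 from -1.65 (SE 0.86) to 0.45 (SE 0.43), Gad1 from -1.69 (SE 0.93) to 0.54 (SE 0.58) and Gad2 from -0.39 (SE 0.39) to 0.27 (SE 0.26).

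Dlx5 moved farthest in this comparison, from a log2 fold change of -1.33 (SE 1.06, adjusted p = 0.968 in edgeR) to 2.13 (SE 0.48, adjusted p = 1 in edgeR). The second value compares 30, 30 and 18 reads in sh-Gpc2 with 3 and 9 reads in the remaining controls. Sp8 was at 0.1 (SE 0.17, 95% interval -0.29 to 0.49) and Sp9 at -0.01 (SE 0.32, 95% interval -0.72 to 0.7), or at 0.17 (SE 0.36) without sh-NT library 1. Dlx6, fitted with no filter, was at -2.34 (SE 0.82, adjusted p = 0.911 in edgeR).

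**Figure D3:**
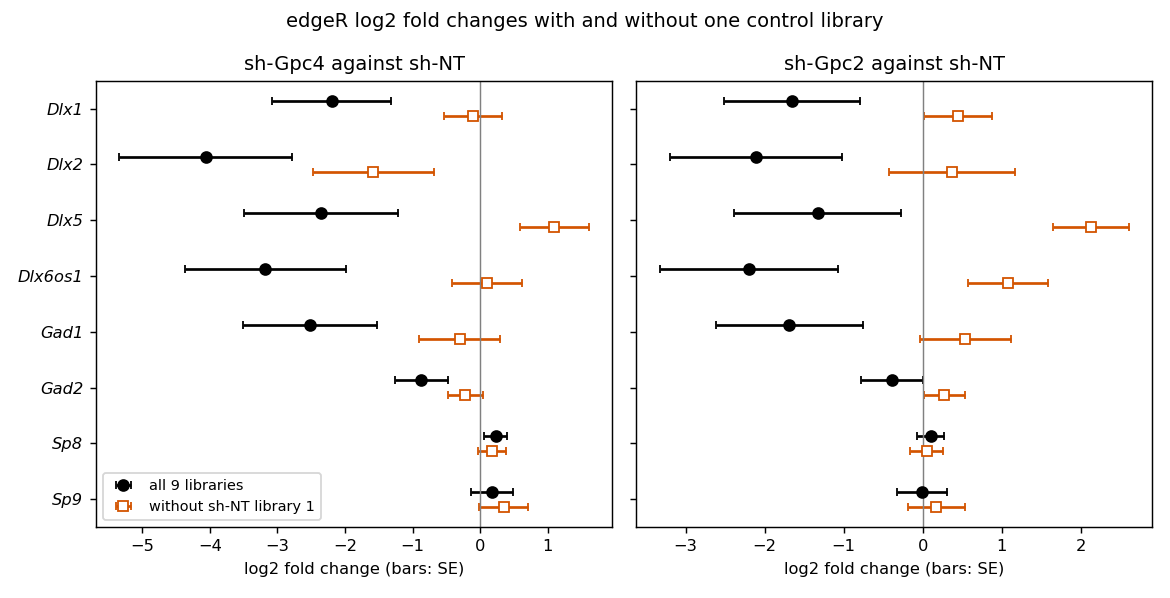
Log2 fold changes of the 8 tested genes in edgeR with their SE (bars), for sh-Gpc4 against sh-NT (left) and sh-Gpc2 against sh-NT (right), with all 9 libraries (black circles) and without sh-NT library 1 (open orange squares). Both comparisons share the sh-NT libraries; Dlx5 moves from -2.36 to 1.1 on the left and from -1.33 to 2.13 on the right, and Sp8 stays between 0.05 and 0.23.

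Between the knockdown groups, 6 of the 8 genes had lower means in sh-Gpc4 than in sh-Gpc2, as did 50.5% of all genes. Sh-NT library 1 enters these values only through steps shared by all libraries: the filter on low counts, the normalization and the estimate of the spread. EdgeR, DESeq2 and limma voom each called 0 of them and 0% of all genes, but DESeq2 gave no p-value for Dlx1 and Dlx5. At an unadjusted p under 0.05 edgeR had 0 of the 8 and 2.89% of all genes. The median log2 fold change was -0.7, against 0 for all genes. Groups did not overlap for 2 of the 8, Dlx5 and Gad2, and for 5.5% of all genes (2% lower, 3.5% higher). The log2 fold change was -1.03 (SE 1.21, 95% interval -3.75 to 1.69) for Dlx5 and -0.49 (SE 0.39, 95% interval -1.37 to 0.4) for Gad2, and an exact permutation p was 0.1 for each, the smallest possible. Dlx2 was at -1.95 (SE 1.35), Dlx6os1 at -0.98 (SE 1.20), Gad1 at -0.83 (SE 1.09) and Dlx1 at -0.56 (SE 0.87). Without sh-NT library 1 the SE of Dlx5 was 0.37 and that of Gad2 0.23, at the same log2 fold changes, and the adjusted p in edgeR was 0.995 for all 8 genes. Without sh-Gpc2 library 1 Dlx2 was at -0.69, Dlx6os1 at -0.52, Gad1 at -0.34 and Dlx1 at -0.26, while Dlx5 was at -0.92 and Gad2 at -0.53.

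Other genes of the ventral lineages were then set beside these 9. The genes named here by sh-NT library 1 were chosen after their values were seen, except for the most abundant of each list. Among 16 genes of the lateral ganglionic eminence and striatum, 4 were highest in sh-NT library 1, and the median ratio of that library to the other 8 was 1.09 over 13 genes, from 0.668 to 22.7. Of these 4, Isl1 had 186 reads in sh-NT library 1 and 4 to 13 reads in every other library. Six3, a homeobox factor of the same region, had 23 reads there and 0 to 3 elsewhere. Ebf1, a factor of striatal neurons, was at 8.95 CPM in sh-NT library 1 and at 1.27 to 2.22 CPM elsewhere. The most abundant members of this list did not share the pattern: Meis2, Foxp1, Foxp2 and Tshz1, which cortical cells also express, stood at 1.07, 0.98, 1.09 and 0.982 times their median over the other libraries. Zfp503 was the fourth, with 22 reads in sh-NT library 1. Drd1 and Drd2, receptors of mature striatal neurons, had at most 5 reads in any library.

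The medial and caudal ganglionic eminences, the sources of most cortical interneurons, gave median ratios like that of the lateral list. For the medial list it was 1.06 over 13 genes, from Nxph1 at 0.402 to Erbb4 at 2.23, and 2 of its 14 genes were highest in sh-NT library 1. Lhx6, the defining factor of medial interneurons, had 28 reads in sh-NT library 1 and 10 to 33 elsewhere, a ratio of 1.78. Nkx2-1 had 0 or 1 read in all libraries and Lhx8 at most 3. Zeb2, Sox6 and Satb1, abundant members of this list, are also expressed in other cells, and their ratios were 1.06, 1.06 and 0.936. For the caudal list the median ratio was 1.17 over 7 genes, from 0.832 to 1.91 (Npas1), and none of its 8 genes was highest there. Calb2, the calcium-binding protein calretinin, was highest in sh-Gpc4 library 4, at 8.39 CPM against 0.371 to 0.692 CPM elsewhere.

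Among early ventral factors, Gsx2 had 18 reads in sh-NT library 1 and 0 to 6 elsewhere. Dlx1as, transcribed across Dlx1, was at 23.3 CPM in sh-NT library 1 and at 9.31 to 13.7 CPM elsewhere, 2.11 times the median. Dlx1as shares 335 of its 1630 exon bases with Dlx1, and reads there cannot be told apart. Of the genes of GABA packaging and uptake, the vesicular transporter Slc32a1 had 25 reads in sh-NT library 1, 9 in sh-Gpc2 library 1 and 0 to 2 elsewhere. Abat, which breaks GABA down, was at 54.5 ± 1.18, 39.8 ± 12.2 and 43.3 ± 9.57 CPM in sh-NT, sh-Gpc4 and sh-Gpc2 (SD, n = 3).

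**Figure D4:**
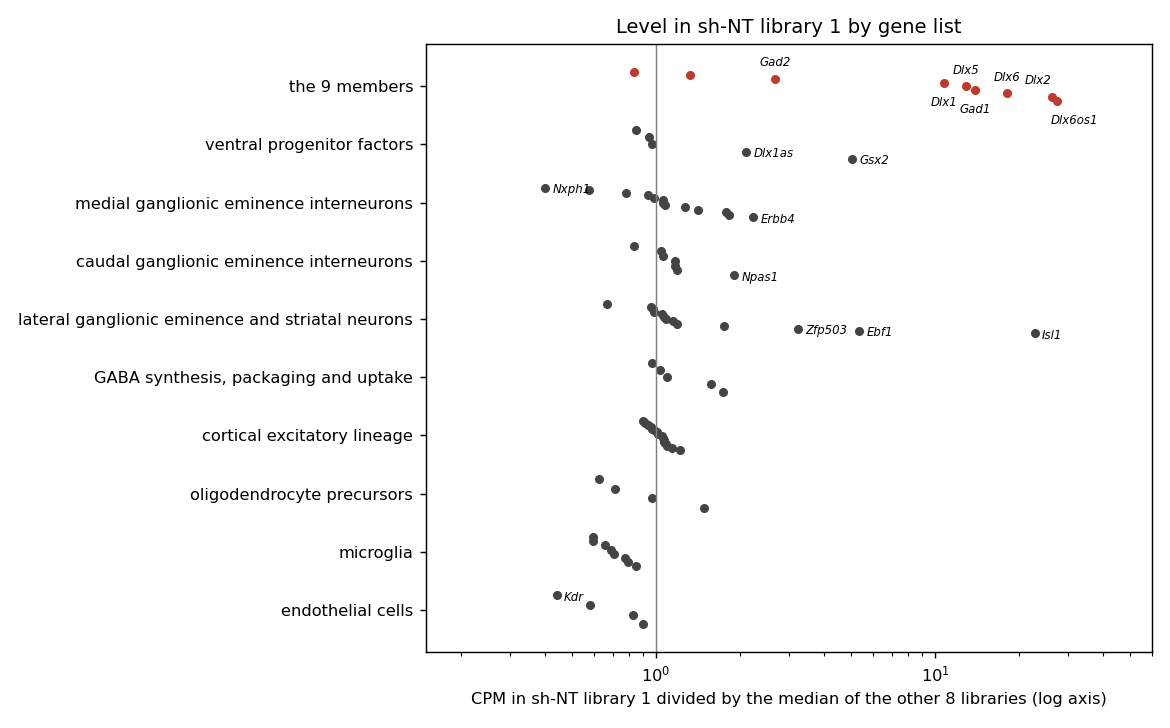
CPM in sh-NT library 1 divided by the median of the other 8 libraries (log axis) for the 9 genes (red) and for the genes of 9 other lists (grey); genes with 3 reads or fewer on either side are left out. Of the 9 genes, 6 lie between 10.8 and 27.2; the lists of cortical excitatory, oligodendrocyte, microglia and endothelial genes lie between 0.442 and 1.49, and Isl1 at 22.7.

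EdgeR called no gene of these lists in any of the 3 comparisons. In sh-Gpc4 against sh-NT, 7 of 12 tested genes of the lateral list were higher (median log2 fold change 0.07), 5 of 12 of the medial list (-0.14), 4 of 7 of the caudal list (0.05) and 1 of 5 of the GABA list (-0.45). In sh-Gpc2 against sh-NT these were 6 of 12 (0.02), 5 of 12 (-0.06), 3 of 7 (-0.05) and 1 of 5 (-0.13). Of 4 tested early ventral factors, 2 were higher in each comparison. Medians over all tested genes were 0.02 and 0.

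Markers of the other cell types in the sort were not raised in sh-NT library 1. Its 16 excitatory lineage genes summed to 3530 CPM, within the 3340 to 3910 CPM of sh-NT, the 3320 to 3930 CPM of sh-Gpc4 and the 3250 to 3590 CPM of sh-Gpc2. The 8 microglia genes summed to 703 CPM in that library, to 703 to 1070 CPM over sh-NT, 800 to 1320 CPM over sh-Gpc4 and 389 to 1220 CPM over sh-Gpc2. The 5 oligodendrocyte precursor genes, a lineage that in part arises ventrally, summed to 5.41 CPM in that library, to 5.41 to 16.3 CPM over sh-NT, 1.27 to 4.91 CPM over sh-Gpc4 and at least 4.64 CPM in each sh-Gpc2 library. The 6 endothelial genes summed to 3.48 CPM there, the lowest of the 9, and Cldn5 was at 0 reads. The part that cells from a neighbouring region have in the values of sh-NT library 1 was not tested.

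By likeness over the 9 libraries, Dlx1as and Ebf1 followed the mean pattern of the 8 tested genes most closely among 12930 named genes of at least 1 CPM on average. Pearson's r of log2 CPM was 0.957 for Dlx1as and 0.931 for Ebf1 (Spearman's rho 0.87 and 0.12). Without sh-NT library 1 it was 0.74 for Dlx1as and -0.06 for Ebf1, so that the likeness of Ebf1 rests on that library. Reads in the exon bases that Dlx1as shares with Dlx1 cannot be told apart. Thap2, Phkg1, CT486005.1, Thsd7a, Zfp618 and Nrxn3 came next, with r between 0.769 and 0.844. Without sh-NT library 1 their r was 0.34, 0.17, 0.62, 0.3, 0.75 and -0.24, in that order. Closest to Gad1 were Ebf1 (0.964), Nrxn3 (0.894), Phkg1 (0.887), Dlx1as (0.883) and Thsd7a (0.832), and all 5 were highest in sh-NT library 1. Without that library their r with Gad1 was 0.1, 0.56, 0.48, 0.04 and 0.5. Sp8 had other neighbours, Pitpna, Lix1l, Rab35, Leprot and Tmed7, with r between 0.977 and 0.992 over 9 libraries and between 0.97 and 0.99 without sh-NT library 1. The points share library depth and group, and these correlations are given as a description.

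Among the genes themselves, Dlx1 and Dlx6os1 kept a Pearson r of 0.91 over the 8 libraries without sh-NT library 1, against 0.99 over all 9. Dlx6os1 and Gad1 were at 0.87 and 0.99, and Dlx1 and Gad1 at 0.86 and 0.99. Dlx1 and Dlx2 fell from 0.95 to 0.48, and Dlx1 and Gad2 from 0.86 to 0.19. Sp8 and Sp9 had an r of 0.53 over 9 libraries and of 0.69 over 8. Values of Gad1 and Dlx2 in these 8 libraries rest on 4 to 70 reads each.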

How the data were processed

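RNA was sequenced in 9 libraries, 3 a group. Extraction (PicoPure) and library preparation (NEBNext, low input) were suited to few cells, per the labels' protocols. The authors deposited raw read counts per gene, made with featureCounts of Subread on GRCm38 and mm10, per the submitters' processing notes. The aligner, the annotation release and strandedness are not stated in those sources. Amplified duplicates are part of the counts and cannot be removed. Symbols matched 51486 of 78275 gene IDs (GENCODE M21).

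Tests ran in R 4.3.3 with edgeR 4.0.16 (quasi-likelihood test, TMM, default filter on low counts, 1 coefficient per group, 27773 genes, Benjamini-Hochberg, threshold 0.05). SE is the log2 fold change over the square root of F. The step was tested on simulated counts in which a whole group was shifted in some of the more abundant genes. Those counts held no shift confined to a single library, so they do not cover that case. DESeq2 1.42.0, limma 3.58.1 voom, 2 other filters, fits of 2 groups, a block and left-out libraries were alternatives. Within groups, no pair of libraries agreed within sampling noise (chi-square over degrees of freedom from 8.36 to 88.7). Likeness used log2(CPM + 2), and the exact permutation test used log2(CPM + 0.01).

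The genes and lists were chosen with earlier results of these data known. Genes named are the 9, the 4 most abundant of each list, and those most alike to the 9, to Gad1 and to Sp8 by Pearson's r; any others were chosen after their values were seen, and some genes under this rule are not reported here. A column number does not match the replicate number of a title, so columns were tied to groups only.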

Additional observations from a re-analysis of the deposited data

How the results depend on the processing

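Under the alternatives, none of which called any of these genes in any comparison, 22 of 387 recomputed log2 fold changes changed sign and no group mean moved beyond its SD under another scaling. Leaving out a library gave these ranges of log2 fold change. In sh-Gpc4 against sh-NT they were -2.92 to 1.1 for Dlx5, -3.71 to 0.1 for Dlx6os1 and -0.09 to 0.35 for Sp9. In sh-Gpc2 against sh-NT they were -2.11 to 0.45 for Dlx1, -3.37 to 0.37 for Dlx2, -1.89 to 2.13 for Dlx5, -2.73 to 1.08 for Dlx6os1, -2.2 to 0.54 for Gad1, -0.74 to 0.27 for Gad2, -0.03 to 0.26 for Sp8 and -0.31 to 0.17 for Sp9. In sh-Gpc4 against sh-Gpc2 Sp9 ran from -0.1 to 0.49. For the genes of the Dlx and Gad families every upper end in the comparisons with sh-NT is the fit without sh-NT library 1. Limma voom gave -0.08 for Sp9 in sh-Gpc4 and 0.02 for Dlx5 in sh-Gpc2. Without sh-Gpc4 library 3 and sh-Gpc2 library 4, an alternative chosen after seeing the data, Sp9 was at -0.11 in sh-Gpc4 and Sp8 at -0.05 in sh-Gpc2, and the other signs against sh-NT held. A replicate block by column number gave -0.26 for Sp9 in sh-Gpc4 against either other group, and called 0 genes in every comparison. Libraries of the same number did not all deviate together (r from -0.08 to 0.67), so the numbers were not taken as pairs. The cause of these changes was not tested, except that leaving out libraries leaves fewer samples. Dlx6 failed the default filter on all libraries. Some alternatives kept it, but only its log2 fold changes from the fit with no filter are given. Below about 0.5 CPM, where Dlx5, Dlx6 and Gad1 lie outside sh-NT library 1, values rest on 2 to 30 reads.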
